A study of Mus musculus with 8 samples.

Results

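The 41 genes described here encode the machinery that copies DNA in S phase, and they were chosen as a named list of symbols, each matched to its row of a table of 55487 mouse genes. All 41 were found, and all 41 had enough reads to be tested. The RNA came from germ cells that were sorted from the fetal testis of C57BL/6 mice. Every animal was homozygous for Oct4-eGFP, a green fluorescent reporter driven by sequences of the pluripotency gene Oct4 (Pou5f1). The 4 libraries of the group called KO came from mice that were also Rhox10-null, and the 4 called WT from littermates with the reporter and no Rhox10 deletion given. Rhox10 is an X-linked homeobox gene. The fetal age, the number of animals behind a library and the extent of the deletion are not given in the sources used here, so p-values here measure only how libraries of a group spread, which may be technical.

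Replication begins when the origin recognition complex, with Cdc6 and Cdt1, loads the ring-shaped MCM helicase onto DNA during G1. In S phase Cdc45 and the GINS complex turn the helicase on, primase and the DNA polymerases copy both strands, and a sliding clamp holds the polymerases in place. E2F transcription factors, released from retinoblastoma proteins by cyclin-dependent kinases, drive many of these genes at the G1/S transition. Fetal male germ cells are known to divide at first and then to stop in G1.

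Libraries held 16346977 to 20311338 counts. Rhox10 itself averaged 1.08 ± 0.117 CPM (counts scaled by library depth and composition) in libraries labelled WT and 0.882 ± 0.220 in those labelled KO (SD, n = 4; log2 fold change -0.28, adjusted p = 0.767), so its reads do not check the labels. Germ cell markers were present, with Ddx4 at 14.8 ± 1.13 and Pou5f1 at 4.47 ± 0.438 CPM per kb of exons in WT libraries (SD, n = 4), but some markers of other testis cells stood higher. Cyp17a1, a steroid enzyme gene of Leydig cells, averaged 474 ± 4.29 and Amh, the Sertoli cell hormone gene, 84.5 ± 2.87 CPM per kb in the same libraries. The replication reads therefore cannot be assigned to 1 cell type, and in such bulk RNA fewer cells of a type and less RNA per cell cannot be told apart.

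Promoter sequence is shown for 5 members, since many replication genes are known E2F targets and the pair of genes that passed the test can be set beside others that did not. Each stretch is from RefSeq on GRCm38.p6 and reads 5′ to 3′ on the strand of the gene. It ends at the base before the RefSeq start of transcription, except for Pcna, where only 25 bases around the single CCAAT box are given. The RefSeq start used for Pcna lies inside the gene as the annotation places it, so that these 25 bases are annotated as Pcna exon. All 200 bases given for Slbp lie in exons of a neighbouring gene, Gm10459. Capitals mark matches, on either strand, to CCAAT or to an E2F-type octamer (TTTCCCGC, TTTGGCGC, TTTCGCGC or TTTGCCGC). On the opposite strand CCAAT reads as ATTGG, and overlapping matches run together.
Pcna, chr2:132253253-132253277, minus strand: cacgggtacgATTGGtccttgagga
Slbp, chr5:33652575-33652774, minus strand: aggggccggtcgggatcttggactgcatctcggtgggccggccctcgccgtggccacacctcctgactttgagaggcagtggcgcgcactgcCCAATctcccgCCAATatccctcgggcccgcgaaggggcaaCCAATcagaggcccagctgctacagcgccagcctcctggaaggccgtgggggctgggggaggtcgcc
Mcm5, chr8:75109309-75109508, plus strand: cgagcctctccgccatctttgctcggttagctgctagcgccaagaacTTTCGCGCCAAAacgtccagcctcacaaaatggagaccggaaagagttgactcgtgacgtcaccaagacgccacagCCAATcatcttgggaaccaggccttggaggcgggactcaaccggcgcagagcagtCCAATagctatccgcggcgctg
Mcm6, chr1:128359706-128359905, minus strand: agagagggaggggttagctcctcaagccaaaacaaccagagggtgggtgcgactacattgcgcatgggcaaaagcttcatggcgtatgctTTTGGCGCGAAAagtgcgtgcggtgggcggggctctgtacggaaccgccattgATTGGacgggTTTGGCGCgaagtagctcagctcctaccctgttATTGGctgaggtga
Pola1, chrX:93632156-93632355, minus strand: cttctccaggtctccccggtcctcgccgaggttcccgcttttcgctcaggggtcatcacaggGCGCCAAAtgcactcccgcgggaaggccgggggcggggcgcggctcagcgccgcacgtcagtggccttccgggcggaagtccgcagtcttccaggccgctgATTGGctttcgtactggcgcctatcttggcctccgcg

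A promoter was given for 33 of the 41 members. In the window from 250 bases before to 50 after the start, an E2F-type octamer was found for 13 of these 33 (39.4%) and for 2.60% of the 27025 genes with a promoter in the table. CCAAT was found for 21 (63.6%), against 41.06% of all. In Mcm5 and Mcm6, 2 octamers on opposite strands overlapped, and Mcm6 held a further octamer near its start. No octamer was in the windows of Pcna and Slbp. That of Pcna lies largely in its own exon, so its letters say little of the Pcna promoter. The bases shown for Slbp lie directly before its annotated start and also in exons of Gm10459. The median log2 fold change, KO over WT, was -0.01 over the 13 genes with an octamer and -0.02 over the 20 without. A match is a run of letters and not a measured binding site.

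The design asks whether loss of Rhox10 goes with other levels of the replication genes. Levels were close: the estimates of 36 of the 41 differed by under 1.1-fold. Pcna, the gene of the sliding clamp, and Slbp, the gene of the protein that binds histone mRNA, were lower in KO libraries, by 1.13-fold and 1.098-fold. No member rose in edgeR's quasi-likelihood test, and 39 did not pass. The 2 calls are 4.88% of the members, while 5.14% of all 23190 genes tested were called (2.35% higher and 2.80% lower), so the count is near the background. Scaled by library totals alone, the genes called over the whole table were 426 higher and 836 lower, against 544 and 649. With upper-quartile scaling they were 633 higher and 555 lower, so which direction had more calls depends on the scaling.

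At an unadjusted p under 0.05 there were 7 members, 2 higher and 5 lower (17.1% of the list, against 15.6% of all genes). DESeq2 and limma voom called none of the 41, and edgeR called 0 without WT replicate 2. With 1 KO library left out edgeR called 1 member, which was Pcna without KO replicate 1 or 3, Orc1 without KO replicate 2 and Rfc4 without KO replicate 4. Without WT replicate 1 it called Pcna and Rfc4. The median log2 fold change was -0.02, with 16 members above 0 and 25 below, and the median over all genes tested was 0.002. A missed threshold does not show equal levels, so the 95% interval of each difference was also read. It lay within 1.2-fold of no change in both directions for 32 of the 41, Slbp among them, and for 39.6% of all genes, many of which are less abundant. The members whose intervals reached past 1.2-fold were Pcna, Orc1, Rfc4, Ccne1, Fen1, Rfc3, Gins1, Gins2 and Gins3.

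**Figure D1:**
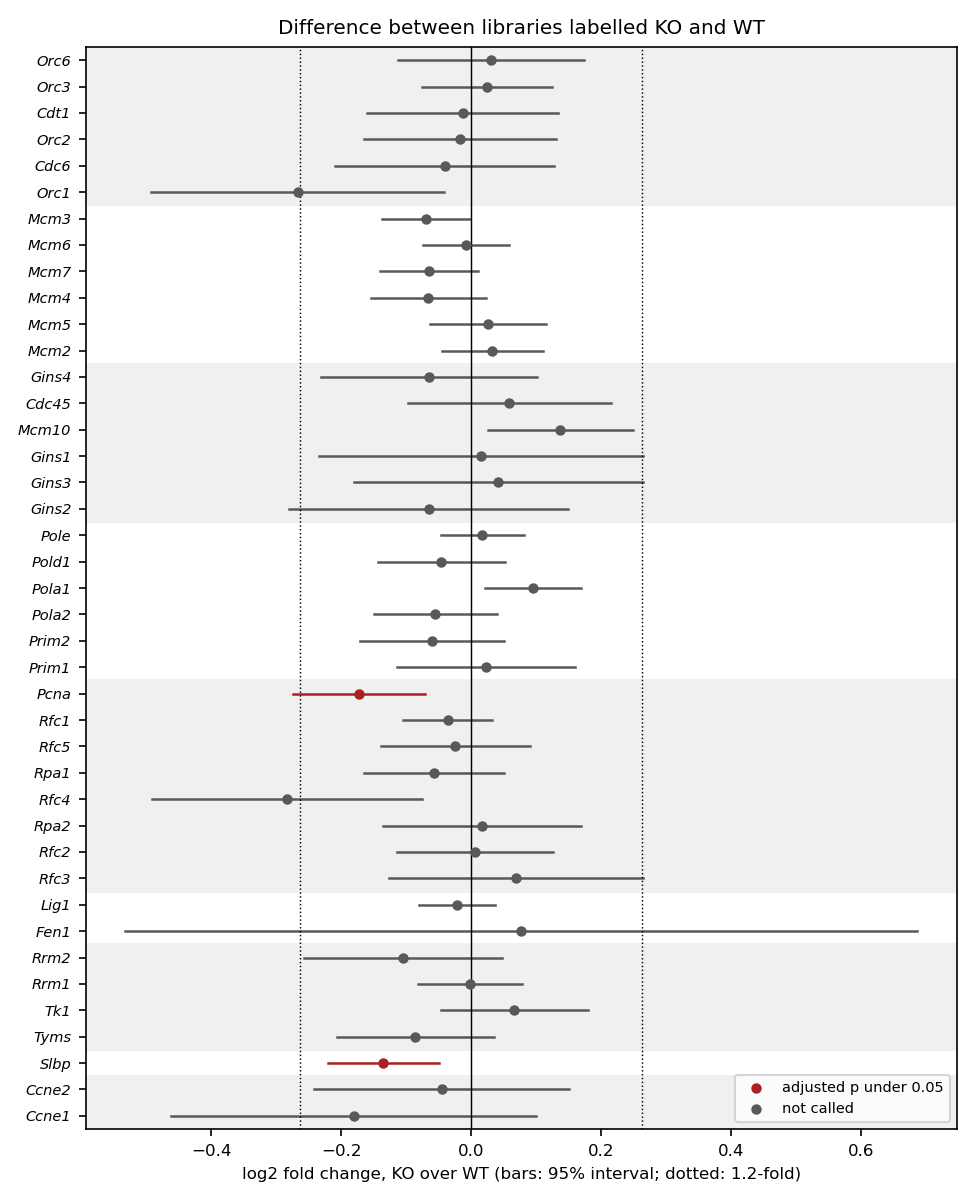
Log2 fold change of each of the 41 replication genes, KO over WT, as a point with its 95% interval as a bar; grey bands separate the roles and dotted lines mark a 1.2-fold difference. Pcna (-0.17) and Slbp (-0.13) are the 2 called members, in red; Fen1 has the widest interval, -0.53 to 0.69.

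Pcna, at chromosome 2 from 132249162 to 132253314 on the minus strand (GRCm38), had 44.1, 46.4, 43.4 and 43.1 CPM in WT replicates 1 to 4 and 43.6, 36.2, 40.5 and 37.0 CPM in KO replicates 1 to 4. KO replicate 1 lay inside the range of the WT label and the other 3 KO libraries lay below it, so the groups overlapped. Pcna fell by 0.17 on the log2 scale (standard error 0.05, 95% interval -0.27 to -0.07, edgeR adjusted p = 0.0257).

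The call of Pcna was not kept by DESeq2 (adjusted p = 0.135) or limma voom (0.0682), nor without WT replicate 2 (0.135), KO replicate 2 (0.185) or KO replicate 4 (0.153). A processed copy of the gene, Pcna-ps2, had 25.5 ± 0.650 and 22.01 ± 2.11 CPM in WT and KO libraries (SD, n = 4). Its log2 fold change was -0.21 (edgeR adjusted p = 0.0395, and 0.0119 to 0.262 with 1 library left out). It was not called by DESeq2 (adjusted p = 0.151), by limma voom (0.0691) or with upper-quartile scaling (0.0522). The copies may share reads. With the counts of both summed, an alternative chosen after seeing the data, the log2 fold change was -0.19 (edgeR adjusted p = 0.00102). Reads counted under both copies would enter this sum more than once, so its p-value does not strengthen the call of Pcna.

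Slbp, at chromosome 5 from 33634952 to 33652574 on the minus strand, had 63.1, 65.7, 60.8 and 61.3 CPM in WT libraries and 56.8, 57.9, 56.4 and 57.5 CPM in KO libraries. All 4 KO libraries lay below all 4 WT libraries. It fell by 0.13 on the log2 scale (standard error 0.04, 95% interval -0.22 to -0.05, edgeR adjusted p = 0.0433). The call was close to the threshold: DESeq2 gave an adjusted p of 0.110 and limma voom 0.0650. Leaving out 1 library ended it for 6 of the 8, WT replicates 1 (adjusted p = 0.0856) and 2 (0.194) and KO replicates 1 (0.0803), 2 (0.0687), 3 (0.118) and 4 (0.0778).

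Slbp protein binds the stem-loop that replication-dependent histone mRNAs carry in place of a poly(A) tail. Of 64 such histone genes tested, 30 fell in edgeR (46.9%, against 2.80% of all genes tested). None rose (1 had a log2 fold change above 0) and 34 did not pass, with a median log2 fold change of -0.12. A link between these calls and the level of Slbp was not tested. DESeq2 and limma voom called 16 each, and edgeR 17 without WT replicate 2 or KO replicate 1 and 19 without WT replicate 3. Counting may share reads among the near-identical histone copies. Hist1h2bq and Hist1h2br had nearly the same counts in each library (2815 and 2819 in WT replicate 1, 2893 each in KO replicate 3). The histone calls are therefore not all separate results. Hist1h2bn, an H2B gene, had 149 ± 1.75 and 129 ± 6.05 CPM in WT and KO libraries (SD, n = 4). It fell by 0.21 on the log2 scale (edgeR adjusted p = 1.77e-08).

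**Figure D2:**
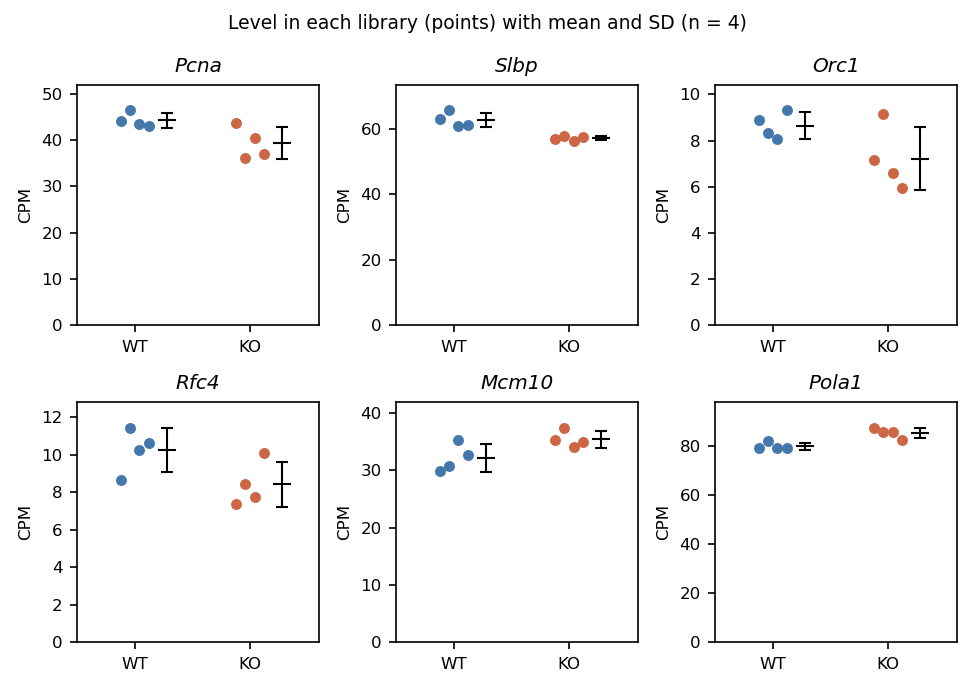
CPM of 6 members in each library (points, from replicate 1 at the left to 4 at the right, axes from 0) with the mean and SD of each group (n = 4) beside them. The groups do not overlap for Slbp and Pola1 and overlap for Pcna, Orc1, Rfc4 and Mcm10; only Pcna and Slbp passed the test in edgeR.

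Marker lists of other cells moved between the same groups. The summed CPM of 8 tubule and duct epithelial markers was 40.7 to 44.3 in WT libraries and 81.1 to 92.8 in KO libraries, and all 8 rose. That of 9 erythroid markers was 226 to 240.0 and 95.3 to 99.4 (5 fell), that of 5 striated muscle markers 132 to 137 and 63.4 to 66.0 (2 of 4 tested fell), and that of 6 Leydig markers 3051 to 3082 and 2771 to 2809 (5 fell). The 6 macrophage markers summed to 25.1 to 27.6 and 18.9 to 23.6 CPM (1 of 4 tested fell) and the 6 endothelial markers to 168 to 185 and 188 to 196 (2 rose). The 7 Sertoli markers summed to 557 to 583 and 549 to 565 (1 fell), and the 12 germ cell markers to 205 to 224 and 200 to 213 (3 rose and 2 fell of 11 tested). The germ cell markers of lowest p moved in both directions. Their log2 fold changes were -0.45 (Piwil2), -0.43 (Tdrd1), 0.37 (Dazl) and 0.41 (Dppa3). No marker of these lists was at 0 in all libraries. The part of these cells in the values of Pcna and Slbp was not tested.

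The origin recognition and licensing genes encode the proteins that mark where replication can start. Their levels, compared per kb of exons, ran from 2.49 CPM per kb for Orc1 to 8.21 for Orc6 in WT libraries, with Cdc6, the ATPase that helps to load the helicase, at 2.75 and Cdt1, its loading partner, at 6.17. None of the 6 passed in edgeR, and 1 had an unadjusted p under 0.05. Orc1, the largest subunit of the complex, had 8.91, 8.33, 8.05 and 9.31 CPM in WT libraries and 7.15, 9.14, 6.62 and 5.94 CPM in KO libraries. KO replicate 2 lay among the WT libraries and the other 3 KO libraries below them. Its log2 fold change was -0.27 (standard error 0.11, adjusted p = 0.196), and without KO replicate 2 it was called (-0.40, adjusted p = 0.0462). The other 5 had log2 fold changes from -0.04 (Cdc6) to 0.03 (Orc6), the WT and KO libraries of each overlapping.

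The 6 subunits of the MCM2-7 helicase, which form a ring of 1 copy each, were among the most abundant members. With the WT label Mcm3 stood at 27.3, Mcm6 at 23.4, Mcm7 at 18.5, Mcm4 at 16.04, Mcm5 at 13.4 and Mcm2 at 10.8 CPM per kb, and the order was the same in KO libraries. None passed in edgeR. Mcm3 had 105, 103, 100.1 and 101 CPM in WT libraries and 92.8, 97.2, 103.5 and 96.6 CPM in KO libraries, with KO replicate 3 inside the range of the WT libraries (log2 fold change -0.07, adjusted p = 0.312). Mcm4 had 56.5, 57.8, 59.6 and 56.4 CPM in WT libraries and 55.9, 54.6, 54.0 and 55.8 CPM in KO libraries. Its groups did not overlap, but the gap was narrow (log2 fold change -0.07, adjusted p = 0.522). Over all genes tested the groups did not overlap for 9.44%, and for 3 of the 41 members: Mcm4, Pola1 and Slbp.

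The 6 transcripts summed to 475 to 484 CPM in WT libraries and 469.9 to 474 CPM in KO libraries. The 2 ranges came close without meeting, while those of all 41 members overlapped (1674 to 1704 and 1652 to 1678 CPM). Each of the 6 intervals lay within 1.2-fold of no change. Mcm2 and Mcm5 were above 0 (0.03 and 0.03), Mcm6 was at -0.01, and Mcm7 at -0.06 (95% interval -0.14 to 0.01).

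**Figure D3:**
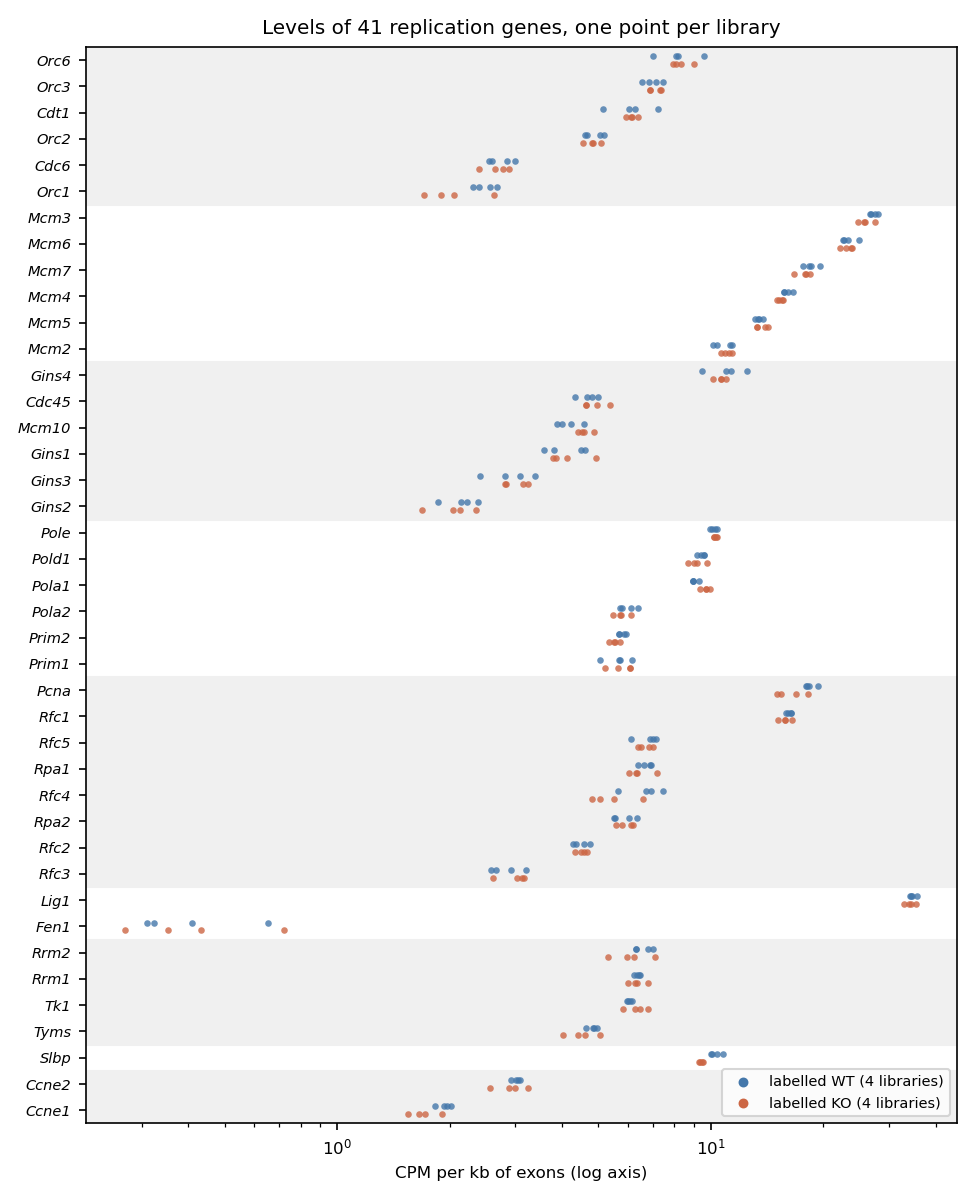
Level of each of the 41 replication genes in CPM per kb of exons, on a log axis, with 1 point per library (WT blue, KO orange) and grey bands separating the roles. The order of the genes is alike in both groups, from Fen1 at 0.424 to Lig1 at 34.7 CPM per kb in WT libraries.

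In WT libraries, genes whose products switch the loaded helicase on stood below all MCM2-7 subunits in level, except Gins4. Gins4 lay just above Mcm2 there (11.06 and 10.81 CPM per kb) and just below it in KO libraries (10.62 and 11.05). Cdc45, which joins MCM and GINS in the active helicase, stood at 4.70 CPM per kb in WT libraries and Mcm10, an activator that binds it, at 4.17. The GINS subunits ran from 2.16 (Gins2) to 11.1 (Gins4) CPM per kb. The level of Gins2 is uncertain, since 67.3% of its exonic bases lie opposite exons of Gse1 and it is not stated whether strand was used in counting. Mcm10 had 29.8, 30.8, 35.2 and 32.6 CPM in WT libraries and 35.2, 37.4, 34.0 and 34.9 CPM in KO libraries. Every KO library lay above WT replicates 1, 2 and 4, and the groups overlapped through WT replicate 3. The log2 fold change of 0.14 did not pass (standard error 0.06, edgeR adjusted p = 0.168). None of the 6 passed, and the other 5 had log2 fold changes from -0.06 to 0.06.

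Among the polymerase genes, Pole, the catalytic subunit of the leading-strand polymerase, stood at 10.2 CPM per kb in WT libraries, Pold1, that of the lagging-strand polymerase, at 9.47 and Pola1, that of polymerase alpha, at 9.06. Pole varied least of all members between libraries, with 111 to 116 CPM in WT libraries and 114 to 116 in KO libraries (log2 fold change 0.02, adjusted p = 0.872). Pola1 is the only X-linked member, at chromosome X from 93304767 to 93632155. It had 79.1, 82.2, 79.0 and 79.0 CPM in WT libraries and 87.5, 85.8, 85.7 and 82.4 CPM in KO libraries. All 4 KO libraries lay above all 4 WT libraries, KO replicate 4 by the narrowest margin. The log2 fold change of 0.10 did not pass over all genes (standard error 0.04, 95% interval 0.02 to 0.17, edgeR adjusted p = 0.137). Pola2, which encodes its accessory subunit, and the primase genes Prim1 and Prim2 had log2 fold changes of -0.06, 0.02 and -0.06.

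The clamp and its loader, replication factor C, act together with the single-strand binding protein RPA. Of these 8 genes Pcna fell and 7 did not pass. Rfc4, a small loader subunit, had 8.67, 11.4, 10.3 and 10.6 CPM in WT libraries and 7.40, 8.43, 7.77 and 10.1 CPM in KO libraries. Here 3 KO libraries lay below every WT library, while KO replicate 4 lay between WT replicates 1 and 3. The log2 fold change was -0.28 (standard error 0.11, adjusted p = 0.105), and Rfc4 was called without WT replicate 1 (-0.35, adjusted p = 0.0439) or KO replicate 4 (-0.39, adjusted p = 0.0285). The other loader subunits, Rfc1, Rfc2, Rfc3 and Rfc5, lay between -0.04 and 0.07, and the RPA genes Rpa1 and Rpa2 at -0.06 and 0.02. Per kb, Pcna was at 18.4 and Rfc1, the large loader subunit, at 16.2 in WT libraries, while the small loader subunits ran from 2.84 (Rfc3) to 6.80 (Rfc5).

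The genes that finish the lagging strand stood at both ends of the scale. Lig1, the ligase that joins Okazaki fragments, was the most abundant member at 34.7 ± 0.684 CPM per kb in WT libraries and 34.2 ± 1.04 in KO libraries (SD, n = 4). Its log2 fold change was -0.02 (edgeR adjusted p = 0.813). Fen1, the flap endonuclease that trims them, had only 0.752 to 1.58 CPM in WT libraries and 0.657 to 1.74 in KO libraries. Of its exonic bases 84.2% lie opposite exons of Tmem258 and Gm10143, so its level is uncertain. Exons of 13 members lay opposite exons of other genes over more than 5% of their length, among them Orc2 (29.8%), Ccne2 (17.4%), Rfc2 (15.1%), Rfc4 (12.7%), Orc1 (10.8%) and Slbp (7.8%), and none of Pcna did.

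Deoxynucleotides come from ribonucleotide reductase, whose subunits are encoded by Rrm1 and Rrm2, from thymidylate synthase (Tyms) and from thymidine kinase (Tk1). Per kb these 4 stood close together, between 4.82 (Tyms) and 6.61 (Rrm2) CPM per kb in WT libraries. That closeness rests on the exon lengths used, 2771 bases for Rrm2 and 11012 for Rrm1. In CPM they ran from 18.3 (Rrm2) to 70.1 (Rrm1). None passed in edgeR or had an unadjusted p under 0.05. Rrm1 had 68.6 to 71.4 CPM in WT libraries and 66.1 to 75.02 in KO libraries (log2 fold change -0.002, 95% interval -0.08 to 0.08). Rrm2, Tyms and Tk1 had log2 fold changes of -0.10, -0.09 and 0.07, with 95% intervals from -0.26 to 0.05, -0.21 to 0.04 and -0.05 to 0.18. The KO libraries spread more widely than the WT libraries for all 4, with SDs of 2.01 against 0.952 CPM for Rrm2 and 2.64 against 0.855 CPM for Tyms.

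Cyclin E, which activates Cdk2 at the G1/S transition, is encoded by Ccne1 and Ccne2. Both were scarce, at 1.94 and 3.02 CPM per kb in WT libraries. Ccne1 had 4.88 to 5.37 CPM in WT libraries and 4.12 to 5.07 in KO libraries, overlapping through KO replicate 4 (log2 fold change -0.18, 95% interval -0.46 to 0.10, adjusted p = 0.609). Ccne2 was at -0.05 (adjusted p = 0.896).

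Within the groups, pairwise correlation showed no common movement of the members from library to library. Over the 820 pairs of members the median Pearson correlation of log2 CPM, with group means removed, was 0.02 across the 8 libraries, and over the 15 pairs of MCM2-7 genes it was -0.32. These pairs share libraries and scaling, and with 8 libraries a weak common movement could be missed. The SD of log2 CPM within a group had a median of 0.085 over members, from 0.019 (Pole) to 0.49 (Fen1). It was 0.083 over the 5610 genes of like abundance (within the middle 50% of the members in mean level) and 0.15 over all genes tested, which are on the whole less abundant. The median absolute log2 fold change was 0.055 over members and 0.059 over the genes of like abundance, of which 5.04% were called.

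Other genes of the pathway were read from lists of the same biology. Of 33 further replisome genes, such as the origin kinase Cdc7 and the checkpoint mediator Topbp1, none passed in edgeR (2 at an unadjusted p under 0.05), DESeq2 or limma voom, and the median log2 fold change was 0.02. Of 17 further nucleotide synthesis genes and 15 fork checkpoint genes, none passed with any of the 3 tools (0 and 1 at an unadjusted p under 0.05), with medians of -0.02 and 0.01. Of 30 G1/S control genes tested, 1 rose and 29 did not pass, with a median of 0.05. Ccnd1, which encodes cyclin D1, had 7.28, 5.01, 5.79 and 5.09 CPM in WT libraries and 7.64, 7.65, 6.04 and 9.12 CPM in KO libraries. KO replicate 3 and WT replicate 1 overlapped with the other group (log2 fold change 0.40, standard error 0.12, edgeR adjusted p = 0.0335). Its call was not kept by DESeq2 (0.214) or limma voom (0.128), and leaving out any 1 of WT replicates 2 (0.172), 3 (0.0769) and 4 (0.138) or of KO replicates 1 (0.0571), 2 (0.0767) and 4 (0.281) ended it. E2f1, a main activator of replication genes, averaged 16.4 ± 1.44 in WT and 16.9 ± 0.858 CPM in KO libraries (SD, n = 4), with a log2 fold change of 0.04 (edgeR adjusted p = 0.888).

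Mitosis genes were read as a sign of dividing cells. None of 20 passed in edgeR (2 at an unadjusted p under 0.05), with a median of 0.01 and log2 fold changes from -0.19 to 0.10. There was 1 call each by DESeq2, by limma voom, by edgeR without KO replicate 2 and by edgeR with library totals alone. With library totals the called gene was lower in KO libraries. Mki67, the proliferation antigen gene, was abundant, with 905.5, 888.6, 899.4 and 903.5 CPM in WT libraries and 934, 932, 920.1 and 929.9 CPM in KO libraries. All KO libraries lay above all WT libraries by a small margin (log2 fold change 0.05, standard error 0.02, adjusted p = 0.136). The medians of the mitosis and fork checkpoint lists were below 0 when scaled by library totals alone (-0.003 and -0.01). That of the replication genes was below 0 under each scaling tried, from -0.04 to -0.01. A scaling moves all genes nearly alike, so the kept sign is not separate support. The median over all genes tested was -0.01 with library totals and 0.01 with upper-quartile scaling. The summed level was 1139 to 1153 CPM in WT and 1159 to 1172 in KO libraries for the G1/S control genes, and 2682 to 2722 and 2739 to 2774 CPM for the mitosis genes. With composition factors applied, both sums were higher in every KO library, opposite to the MCM2-7 sum. Sums under other scalings are not given here. Of the 20 mitosis genes 11 had a log2 fold change above 0 and 9 below, and of the 30 G1/S control genes 22 and 8. Mki67 alone averaged 899 CPM in WT and 929 in KO libraries, of mitosis sums averaging 2701 and 2757.

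**Figure D4:**
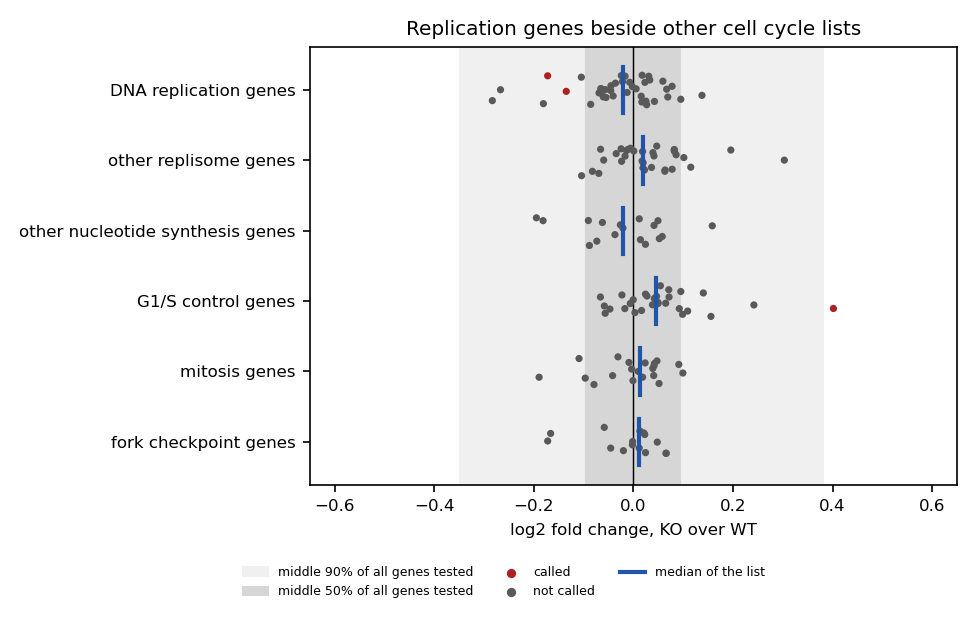
Log2 fold change, KO over WT, of the replication genes and of 5 other cell cycle lists, with 1 point per gene tested (vertical scatter has no meaning), the median of each list as a blue bar and the middle 50% and 90% of all genes tested in grey. Called genes, in red, are Pcna and Slbp below 0 and Ccnd1 above 0.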

How the data were processed

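Counts of reads per gene in 8 libraries were used as the authors deposited them, raw and not normalized, in columns named by group and replicate. Per the labels' protocols, the kit is stranded and takes tiny amounts of RNA. The submitters' processing notes name STAR 2.5.2b, Subread, featureCounts, DESeq2 and GRCm38, with no roles or settings. The exon length of each gene came from the deposited table. It covers all annotated exon bases, used in these cells or not, so levels per kb compare genes only roughly. Symbols for 55141 of 55487 gene IDs came from GENCODE M21, where all 41 members had the same positions.

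The fit used R 4.3.3 and edgeR 4.0.16: filterByExpr at its defaults, composition factors (TMM), a robust quasi-likelihood test of KO against WT, two-sided, and Benjamini-Hochberg adjustment over 23190 genes. A gene was called at an adjusted p under 0.05. Intervals rest on the standard error from the F statistic. The fit was also run on simulated data, whose outcome is not given here and is not used as support. Log2 CPM used a prior count of 2.

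The members and lists were chosen with earlier results of these data known. All 41 members and Rhox10 are named. From each other list a rule picked the called genes of lowest p (4 at most) or, with none called, the 2 most abundant. Not every gene so picked is named here. Genes outside that rule, named after their values were seen, are Pcna-ps2, E2f1, Amh, Ddx4, Pou5f1 and Cdc7.

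Between WT and KO libraries of the same replicate number, deviations from the group means correlated by -0.01 to 0.02 over all genes tested. Such values do not show whether same-numbered libraries share a litter, which the labels do not state. Within a group, the 12 pairs of libraries differed by more than sampling noise (chi-squared per degree of freedom 1.75 to 5.11). Alternatives were DESeq2 1.42.0, limma 3.58.1 with voom, other scalings and filters, the replicate block, other thresholds and each library left out. No molecular identifiers mark the reads, so counts may repeat molecules.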

Additional observations from a re-analysis of the deposited data

Results flagged for a closer look

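A library far from the other 3 of its group was looked for in 152 groups of 4, of which chance flags about 1 in 20. Among the members, Pola1 had 82.2 CPM in WT replicate 2, against 79.0 to 79.1 in the other 3, and Lig1 had 153 CPM in WT replicate 4, against 146 to 147. Hist1h2br and Hist1h2bq, near-identical H2B genes, had 162 and 162 CPM in WT replicate 4, against 169.7 to 171 and 169 to 171. Their counts were nearly the same in each library, so these flags are not separate. Ptgds, a Sertoli marker, had 27.5 CPM in KO replicate 1, against 24.2 to 24.8, and Cyp17a1 had 1208 CPM in KO replicate 2, against 1182 to 1185.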

How the results depend on the processing

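No replication gene was called higher under any of the 21 alternatives. The 2 called lower became 1 with upper-quartile scaling, with no filter on low counts and without robust dispersion, and 0 with DESeq2, limma voom or an adjusted p under 0.01. Leaving out 1 library gave 0 to 2, with 0 without WT replicate 2. Pcna was called in 14, the sum with Pcna-ps2 among them, and Slbp in 8 of the 19 alternatives that keep the threshold. Of 860 values of members under an alternative, 40 (of 17 genes) changed sign, none of them called.

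The genes called over the whole table were 729 with DESeq2 (354 higher, 375 lower), 424 lower with limma voom and 678 at an adjusted p under 0.01 (313 higher, 365 lower), and 898 to 1040 with 1 library left out (390 to 490.0 higher, 501 to 550.0 lower). The 1 call among G1/S control genes became 0 with no filter, DESeq2, limma voom, without robust dispersion and at 0.01, and 0 to 1 with 1 library left out. Mitosis genes had 1 call with library totals (lower in KO), DESeq2, limma voom and an adjusted p under 0.10, and 0 to 1 with 1 library left out. The direction is given here only for library totals. Histone calls were 16 with DESeq2 and 16 with limma voom, and 17 to 35 with 1 library left out, fewest without WT replicate 2 or KO replicate 1. The causes were not tested. With the replicate block 1249 genes and 2 replication genes were called, and Pcna and Slbp were the same 2. Fen1, Ccne1, Gins1, Gins2, Gins3, Orc1, Rfc3 and Rfc4, whose intervals reach past 1.2-fold, had low counts. So did Ccne2 (150 to 221 counts), whose interval did not. The estimates of Orc1 (-0.27) and Rfc4 (-0.28) were themselves beyond 1.2-fold. The part of low counts in the intervals was not tested.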
